A study of Mus musculus with 10 samples.

Results

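The genes described here encode the proteins that repackage the spermatid nucleus, together with regulators of that repackaging. They are the protamine genes Prm1, Prm2 and Prm3, the transition protein genes Tnp1 and Tnp2, the spermatid linker histone genes H1fnt and Hils1, and the chromatin regulators Brdt, Chd5 and Rnf8. The 10 genes were chosen by name from 55421 genes counted in poly(A) RNA-seq of mouse testes, all 10 had a row in every count table, and 9 of them passed the filter on low levels that left 20240 genes for testing. Libraries came from testes at postnatal day 21, 3 from Mov10+/+ (wild type, replicates 1, 2 and 3) and 3 from Mov10-/- mice (replicates 2, 3 and 4). Mov10 encodes an RNA helicase. The Mov10-/- mice were global knockouts, in which a broadly active Actb-Cre had deleted floxed exons, and the mice had a mixed strain background. Each library came from 1 pair of testes. The series also holds 4 libraries of CLIP-seq, in which RNA crosslinked to MOV10 protein is immunoprecipitated from wild type testis of the same age.

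During spermiogenesis, the haploid spermatid exchanges nearly all of its nucleosomes for small basic proteins. Histones are first marked by acetylation and ubiquitylation, then transition proteins take their place, and protamines finally compact the DNA of the sperm head. The transition protein and protamine genes are transcribed in round spermatids, and their mRNAs are kept untranslated until the spermatid elongates. In the mouse, the first round spermatids of the first wave of spermatogenesis appear at about the age sampled here.

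No gene of the group changed significantly between genotypes at an adjusted p under 0.05 and a fold change over 2 (quasi-likelihood F test of edgeR, p-values adjusted by Benjamini-Hochberg). The outcome depended on the test. DESeq2 called 5 of the 9 tested genes lower (4.88% of all tested genes), and limma voom called 0 (0.00494%). The exact and likelihood ratio tests of edgeR called 6 each (5.09% and 5.45%). The genes of the late steps had far lower mean levels in the Mov10-/- libraries than in the wild type libraries. The mean level of Prm2 was 21.6-fold lower, that of Tnp2 34.8-fold lower and that of H1fnt 17.4-fold lower in Mov10-/- testes. These folds rest largely on wild type replicate 2, without which they were 5.92, 9.94 and 5.42. In contrast, Brdt stood at 89.4% and Rnf8 at 121% of the wild type mean. The wild type libraries themselves differed widely in the late genes: Prm2 was 36.6-fold higher in the highest than in the lowest wild type library, whereas Brdt was 1.21-fold higher.

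The positions and start regions of the transition protein and protamine genes are given first, whose products carry out the exchange itself. Prm1, Prm2, Prm3 and Tnp2 lie together on chromosome 16 of mm10, all on the minus strand. Prm1 spans chr16:10796326-10805839, Prm2 spans chr16:10791380-10796134, Prm3 spans chr16:10790505-10790914 and Tnp2 spans chr16:10787936-10788660. Tnp1 lies alone at chr1:73015074-73015909, also on the minus strand. In the 250 bases before each RefSeq start (build GRCm38.p6), the sequence TGANNTCA, which reads the same on both strands and is a degenerate form of the cAMP response element, was found in Tnp1, Prm1 and Prm3, and was present in 11.9% of all RefSeq promoters of that length. The complete element TGACGTCA was found in none of the 10 genes and in 1.55% of all promoters. The sequence TATATA, also the same on both strands, was found in Tnp2 and Prm2 and in 5.25% of all promoters. TATAAA, searched on both strands, was found only in Prm2 among the 10 genes, on the opposite strand and overlapping TATATA, and in 12.4% of all promoters. The motif is in capitals in each window of 30 bases, written on the strand of the gene.
Tnp1, chr1:73015975-73016004, minus strand: gcaaaggttagTGATGTCAcaagagagctg
Prm1, chr16:10796869-10796898, minus strand: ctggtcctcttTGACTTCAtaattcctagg
Prm3, chr16:10790956-10790985, minus strand: tggagcctttgTGAGGTCAgtgccacaccc
Tnp2, chr16:10788673-10788702, minus strand: aatcggcccagcTATATAactaggggctgt
Prm2, chr16:10792117-10792146, minus strand: ggggtttaccttTATATAtgagccctctga
A match is a description of the sequence and not evidence of a bound factor.

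The libraries held 5083407 to 9230540 reads on genes, the smallest being Mov10-/- replicate 3. Mov10 itself was at 96.8 to 120 CPM (counts scaled to a library size of 1000000 reads) in wild type and at 26.7 to 29.2 CPM in Mov10-/- libraries, with a log2 fold change of -1.999 and an adjusted p of 0.00552 in edgeR's quasi-likelihood test, lower in every Mov10-/- library as the labels give it. Levels below are CPM after TMM scaling of library sizes. Because the samples are whole testes, fewer spermatids and less RNA per spermatid cannot be told apart. Nothing in the labels ties a library to a litter or a day, and p-values measure the spread between these libraries.

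Among the regulators, Brdt encodes the testis-specific BET protein whose bromodomains bind acetylated histones, and its mRNA is already present in spermatocytes. Brdt lies at chr5:107331159-107387058 on the plus strand. It was at 206, 249 and 212 CPM in wild type replicates 1, 2 and 3, and at 174, 217 and 205 CPM in Mov10-/- replicates 2, 3 and 4. The groups overlapped and their means, 222 ± 23.3 and 199 ± 22.4 CPM (SD, n = 3 each), differed by less than either group's range. In the fit, the log2 fold change was -0.16 (standard error 0.12), with a 95% interval from -0.40 to 0.08 and an adjusted p of 0.525 in edgeR's quasi-likelihood test.

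Rnf8 encodes a ubiquitin ligase that acts on histones at DNA breaks and in spermatids. It lies at chr17:29614790-29644991 on the plus strand. It was at 29.9, 29.3 and 44.5 CPM in wild type and at 35.6, 45.2 and 44.8 CPM in Mov10-/- libraries, and wild type replicate 3 lay within the Mov10-/- range. The fitted log2 fold change was 0.27 (standard error 0.21), with a 95% interval from -0.13 to 0.68 and an adjusted p of 0.530 in edgeR's quasi-likelihood test. The Rnf8 values carry an uncertainty, since 13.2% of its exon bases are shared with Gm28043 on the same strand.

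Chd5 encodes a chromodomain helicase that is required for the orderly exchange of histones for protamines. It lies at chr4:152338651-152390194 on the plus strand. Its level was 112, 334 and 84.5 CPM in wild type and 44.0, 86.8 and 51.8 CPM in Mov10-/- libraries. Wild type replicate 2 stood apart from the other 5 libraries, and Mov10-/- replicate 3 was above wild type replicate 3. Its log2 fold change was -1.55 (standard error 0.52; adjusted p = 0.197 in edgeR's quasi-likelihood test), and it was -0.70 when wild type replicate 2 was left out.

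For both linker histone genes, the highest Mov10-/- level was below the lowest wild type level. H1fnt, also called H1t2, encodes a linker histone of the spermatid nucleus and lies at chr15:98255986-98257293 on the minus strand. It was at 15.4, 81.8 and 6.01 CPM in wild type and at 1.24, 3.70 and 0.987 CPM in Mov10-/- testes. The lowest wild type and the highest Mov10-/- library were thus wild type replicate 3 and Mov10-/- replicate 3. In the fit, the log2 fold change was -4.20 (standard error 1.05; adjusted p = 0.150 in edgeR's quasi-likelihood test), and without wild type replicate 2 it was -2.52.

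Hils1 encodes a linker histone-like protein of elongating spermatids. It lies at chr11:94967593-94968456 on the plus strand, within Sgca on the opposite strand, with no exon bases shared between the genes. It was at 31.0, 68.5 and 22.3 CPM in wild type and at 3.47, 15.2 and 7.41 CPM in Mov10-/- libraries. Of the late genes, Hils1 had the narrowest spread in wild type, with the highest library 3.06-fold above the lowest. The fitted log2 fold change was -2.25 (standard error 0.59; adjusted p = 0.150 in edgeR's quasi-likelihood test), and it was -1.65 without wild type replicate 2.

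The transition proteins are the first small basic proteins to occupy the DNA as histones leave. Tnp1 was at 10.7, 34.9 and 3.22 CPM in wild type and at 0.744, 3.50 and 0.741 CPM in Mov10-/- testes. Mov10-/- replicate 3 was slightly above wild type replicate 3, with 17 and 30 reads respectively in libraries of different depth, so the groups overlapped. Its log2 fold change was -3.38 (standard error 0.98; adjusted p = 0.165 in edgeR's quasi-likelihood test). It was -2.18 without wild type replicate 2 and -4.42 without Mov10-/- replicate 3. Of the exon bases of Tnp1, 9.15% overlap an antisense gene, 1700027A15Rik. The library kit was stranded but the strand setting of the counting was not given, so reads of this stretch are uncertain.

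Tnp2 was at 8.60, 47.5 and 2.58 CPM in wild type and at 0, 1.44 and 0.247 CPM in Mov10-/- libraries. These Mov10-/- values rest on 0, 7 and 2 reads, and a count of 0 in replicate 2 allows a level of up to 0.372 CPM (3 reads; counting error only). The groups did not overlap. The log2 fold change of -5.34 was the largest of the group, but its standard error was 1.39 (adjusted p = 0.150 in edgeR's quasi-likelihood test). It was -3.55 without wild type replicate 2 and -7.13 without Mov10-/- replicate 3.

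Prm1 and Prm2 encode the protamines that package the DNA of mouse sperm. Prm1 was at 4.12, 25.7 and 0.859 CPM in wild type and at 0.124, 0.822 and 0.617 CPM in Mov10-/- libraries. All Mov10-/- libraries were below all wild type libraries, but the nearest were wild type replicate 3 with 8 reads (95% exact Poisson interval 0.371 to 1.69 CPM) and Mov10-/- replicate 3 with 4 reads (0.224 to 2.11 CPM), a gap within counting error. Prm1 exceeded 1 CPM in 2 libraries and did not pass the filter, which requires 3. In the same quasi-likelihood fit of edgeR without the filter, its log2 fold change was -4.35 (standard error 1.11; adjusted p = 0.0841). The log2 ratio of its mean levels was -4.30 with all libraries and -2.26 without wild type replicate 2. The exact permutation test of its log2 levels (two-sided) gave p = 0.1, the smallest that 3 against 3 libraries allow.

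Prm2 was at 11.5, 58.9 and 1.61 CPM in wild type and at 0.496, 1.85 and 0.987 CPM in Mov10-/- libraries. The groups overlapped, because Mov10-/- replicate 3 (9 reads) was above wild type replicate 3 (15 reads). In the fit, the log2 fold change was -4.49 (standard error 1.24; adjusted p = 0.156 in edgeR's quasi-likelihood test), and -2.63 without wild type replicate 2. Prm3 shares the chromosome 16 cluster, although its product is acidic and cytoplasmic rather than a DNA-packaging protein. It was at 7.42, 19.6 and 5.16 CPM in wild type and at 0.496, 5.55 and 1.48 CPM in Mov10-/- libraries, again with an overlap between the replicates numbered 3. The log2 fold change of Prm3 was -2.17 (standard error 0.84; adjusted p = 0.246 in edgeR's quasi-likelihood test). It was -1.43 without wild type replicate 2 and -3.41 without Mov10-/- replicate 3.

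**Figure D1:**
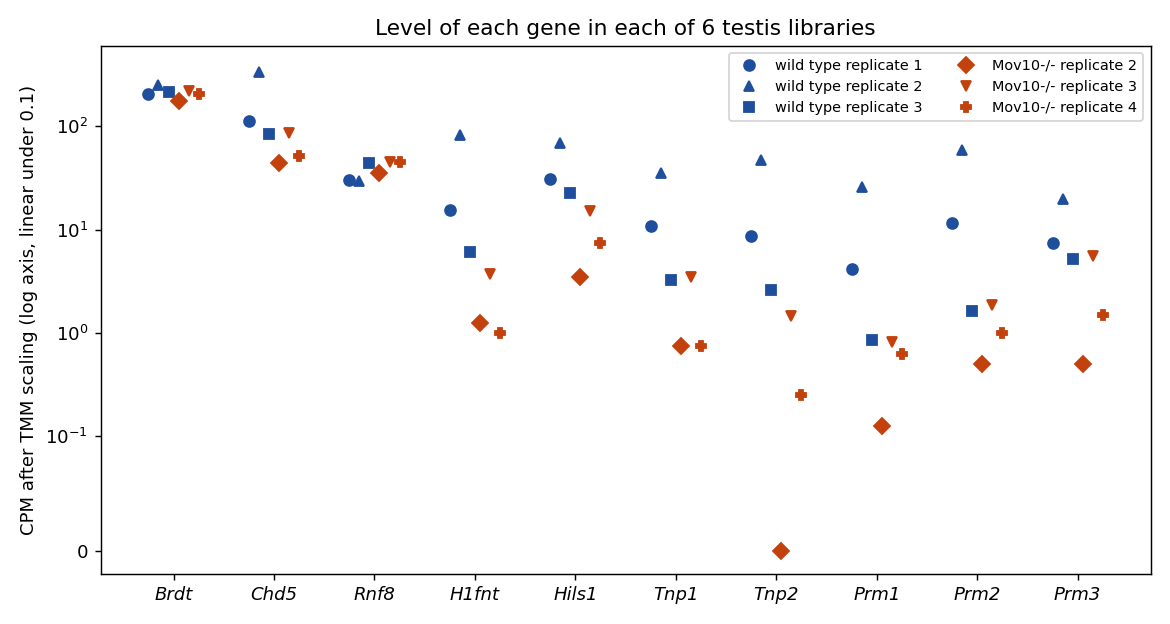
Level of each of the 10 genes (x axis) in each library, in CPM after TMM scaling on a log axis that is linear under 0.1; each point is 1 library, wild type in blue and Mov10-/- in orange. Brdt and Rnf8 stay in a narrow band, and wild type replicate 2 (upward triangle) is the highest library for 9 of the 10 genes. From H1fnt rightwards, wild type replicate 3 (square) is the lowest wild type library and lies near Mov10-/- replicate 3 (downward triangle).

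Counted together, 4 of the 10 genes, H1fnt, Hils1, Tnp2 and Prm1, were lower in all Mov10-/- than in all wild type libraries, 0 were higher in all, and 6 overlapped. Among all tested genes, 14.1% were lower and 11.9% higher without overlap. By role, these were 0 of 3 regulators, 2 of 2 linker histone genes, 1 of 2 transition protein genes and 1 of 3 protamine genes. Leaving out Mov10-/- replicate 3 raised the count from 4 to 9, where 21.9% of all tested genes were lower without overlap, and leaving out wild type replicate 3 raised it to 8, where 18.5% were. Fewer libraries raise this share for all genes by construction. With library totals alone as the scaling it was 6, against 15.4% of all tested genes.

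Of the 9 tested genes, 0 were called in either direction by edgeR's quasi-likelihood test, which called 0.00494% of all tested genes lower and 0% higher. At an unadjusted p under 0.05, 7 of the 9 were lower and 0 higher, against 11.9% and 5.58% of all tested genes. The median log2 fold change of the 9 was -2.25, and that of all tested genes was 0.03. The values of 6 of the 9 were over 4-fold lower, as were those of 5.05% of all tested genes. However, 5 of the 9 (H1fnt, Tnp1, Tnp2, Prm2 and Prm3) exceeded 1 CPM in all 3 wild type but only 1 or 2 Mov10-/- libraries. Their Mov10-/- levels alone would not have passed the filter, so these counts and the median are a description only. Other tests of the same counts called more genes: DESeq2 called 5 of the 9 lower (H1fnt, Hils1, Tnp1, Tnp2 and Prm2) and 4.88% of all tested genes lower and 0.252% higher, while edgeR's exact test called 6, adding Chd5, with 5.09% of all tested genes lower and 0.346% higher. The likelihood ratio test of edgeR also called 6, with 5.45% of all tested genes lower and 0.41% higher, and limma voom called 0, with 0.00494% of all tested genes in each direction. With a replicate block 0 of the 9 were called (0.731% of all tested genes lower and 0.178% higher), with library totals alone 0 of the 9 (0.0148% in each direction), and without the filter 0 of the 10 (0.0138% in each direction).

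**Figure D2:**
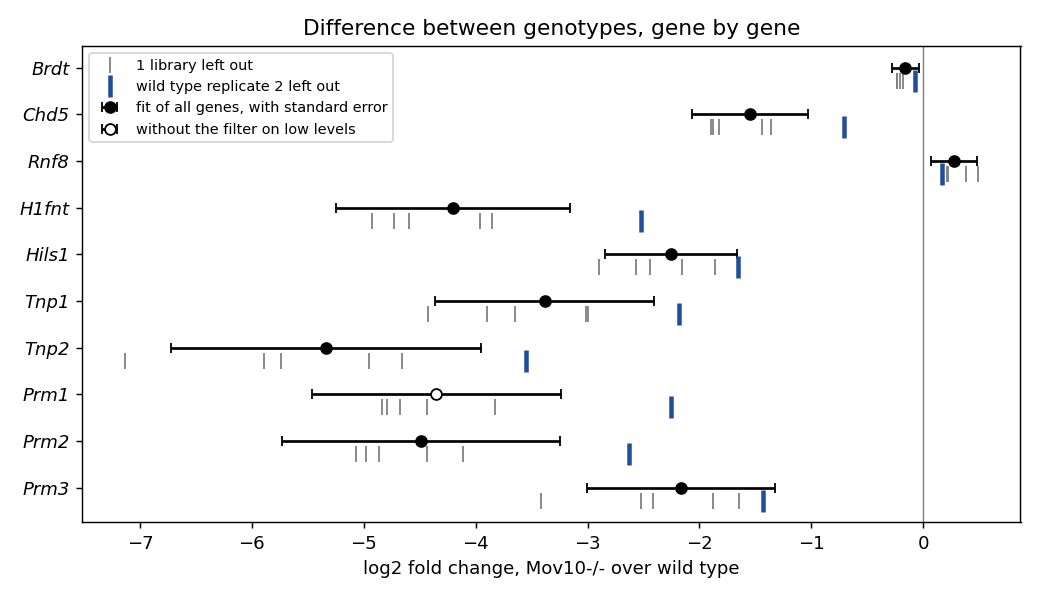
Log2 fold change of each gene, Mov10-/- over wild type (x axis), with its standard error (filled circles, n = 3 libraries per genotype; Prm1, open circle, is from the fit without the filter). Ticks under each circle give the value with 1 library left out (for Prm1, the log2 ratio of mean CPM), and the thick blue tick is without wild type replicate 2. For the 8 genes other than Brdt and Rnf8 that tick is the nearest to 0, at -0.70 for Chd5 and -3.55 for Tnp2.

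The spread among the libraries was shared across the late genes. Wild type replicate 2 held the highest level of 9 of the 10 genes, Rnf8 being the exception, and of 29.2% of all tested genes. Mov10-/- replicate 3 was the highest of its genotype for all 10 genes, compared with 43.1% of all tested genes. In 6 of the 10 genes its level was at or above that of wild type replicate 3, close to the 49.6% of all tested genes. Over the 6 libraries, the log2 level of H1fnt correlated with the mean of Prm1, Prm2, Tnp1 and Tnp2 at r = 0.99, that of Chd5 at r = 0.98, that of Hils1 at r = 0.95, that of Prm3 at r = 0.93, that of Brdt at r = 0.82 and that of Rnf8 at r = -0.70. These values describe 6 libraries that share depth and genotype differences. Of 13640 protein-coding genes outside the group with a mean of at least 5 CPM, 1125 had r above 0.9 with the mean of these 4 genes. The most alike were Lamb3 (r = 0.998), Cyp4f39 (0.998), Gm6657 (0.997), Tmem270 (0.997) and Gm382 (0.996).

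Compared per length, the order of the genes differed between libraries. In CPM divided by exon length in kilobases (RPKM), the wild type means ran from 47.0 ± 28.4 for Hils1 and 43.5 ± 4.56 for Brdt to 17.9 ± 23.7 for Prm1 and 2.95 ± 0.733 for Rnf8 (SD, n = 3). Between them were Tnp1 at 37.3 ± 37.9, Tnp2 at 35.3 ± 44.0, Prm2 at 26.9 ± 34.2, H1fnt at 26.3 ± 31.6, Prm3 at 26.1 ± 18.9 and Chd5 at 18.5 ± 14.3 RPKM. No neighbours in this order differed beyond their spread. In wild type replicate 2, Tnp2 (85.8 RPKM), Tnp1 (79.9 RPKM) and Prm2 (65.9 RPKM) all exceeded Brdt (48.7 RPKM). In wild type replicate 3, by contrast, Brdt (41.5 RPKM) was the highest and Tnp2 (4.65 RPKM), Prm2 (1.80 RPKM) and Prm1 (1.505 RPKM) were far below it. In Mov10-/- libraries, Brdt led with a mean of 38.9 ± 4.37 RPKM, followed by Hils1 at 10.1 ± 6.92 RPKM, and Prm1 was last at 0.913 ± 0.629 RPKM.

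Ratios of reads within a library do not depend on scaling between libraries. For every 1000 reads on Brdt, the wild type libraries held 20.05, 103 and 4.04 reads on Prm1, and the Mov10-/- libraries held 0.713, 3.78 and 3.01. All Mov10-/- values were lower, but wild type replicate 3 was close to Mov10-/- replicates 3 and 4, a gap within counting error. These ratios rest on 8 Prm1 reads in wild type replicate 3 and on 1, 4 and 5 in the Mov10-/- libraries. The mean log2 ratio differed by -3.34, Mov10-/- minus wild type, with p = 0.1 in the exact permutation test (two-sided), the smallest p possible. With Rnf8 in place of Brdt the difference was -3.80.

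Listed markers of spermatids had median log2 fold changes close to that of the group, which includes Brdt (-0.16), Rnf8 (0.27) and Chd5 (-1.55). H1fnt (-4.20), Tnp1 (-3.38), Tnp2 (-5.34) and Prm2 (-4.49) were lower than every round spermatid marker, of which Catsper3 (-2.90) was lowest. Hils1 (-2.25) and Prm3 (-2.17) fell within the range of these markers. Among elongating spermatid markers, Cabs1 (-5.67) and Spem1 (-5.66) were lower than any member tested. Of 13 listed round spermatid markers, 0 were called by edgeR's quasi-likelihood test, 12 were lower at an unadjusted p under 0.05, 9 were called lower by DESeq2 and 10 were lower without overlap. Their median log2 fold change was -2.19 and their summed level was 330 to 998 CPM in wild type and 108 to 308 CPM in Mov10-/- testes. Of 12 elongating spermatid markers, 0 were called by the quasi-likelihood test, 10 were lower at an unadjusted p under 0.05, 8 were called lower by DESeq2 and 6 were lower without overlap, with a median of -2.35 and a summed level of 222 to 904 CPM in wild type and 60.3 to 207 CPM in Mov10-/- testes. Cabs1 (0.620, 0.206 and 0.370 CPM in Mov10-/- libraries) and Spem1 (0.496, 0.411 and 0.123 CPM) exceeded 1 CPM in wild type libraries only. They passed the filter through those libraries, so the elongating spermatid counts and median are a description only. Of all tested genes, 11.9% were lower at an unadjusted p under 0.05 and 4.88% were called lower by DESeq2. Without overlap, 14.1% of all tested genes were lower and 11.9% higher. The part of spermatid number in the values of the late genes was not tested. By contrast, the summed level of 14 spermatocyte markers was 1488 to 1649 CPM in wild type and 1408 to 1757 CPM in Mov10-/- libraries, with a median log2 fold change of 0.06. The sum of 11 Sertoli cell markers was 817 to 907 CPM in wild type and 981 to 1167 CPM in Mov10-/- libraries, with 5 of 10 tested markers higher without overlap and a median of 0.33. Median log2 fold changes were 0.24 for 10 spermatogonial, 0.17 for 5 tested Leydig cell and 0.44 for 6 macrophage and blood cell markers, and none of these lists held a gene called by the quasi-likelihood test or by DESeq2.

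Set against the round spermatid markers of the same library, the summed reads of the transition protein genes and of Prm1 and Prm2 did not keep a constant share. This ratio was chosen after the values were seen and is given as a description. Reads on Prm1, Prm2, Tnp1 and Tnp2 together came to 80.7, 167 and 25.04 per 1000 reads on the 13 markers in wild type and to 12.6, 24.7 and 15.3 in Mov10-/- libraries. Wild type replicate 3 and Mov10-/- replicate 3 were again side by side. For Hils1 the ratio was 71.4, 68.6 and 67.6 in wild type, nearly the same in all 3, and 32.0, 49.5 and 43.8 in Mov10-/- libraries. For Chd5 it was 259, 335 and 256 in wild type and 406, 282 and 307 in Mov10-/- libraries, so Chd5 was not lower relative to these markers. Actl7b, 1 of the 13 markers, had a log2 fold change of -0.44, against the list median of -2.19. It was at 80.1, 135 and 85.3 CPM of summed levels of 434, 998 and 330 CPM in wild type. In Mov10-/- libraries it was at 49.0, 98.7 and 74.2 CPM of 108, 308 and 169 CPM. Actl7b was thus a larger part of the denominator in Mov10-/- libraries, which lowers their ratios, and ratios without it were not computed.

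**Figure D3:**
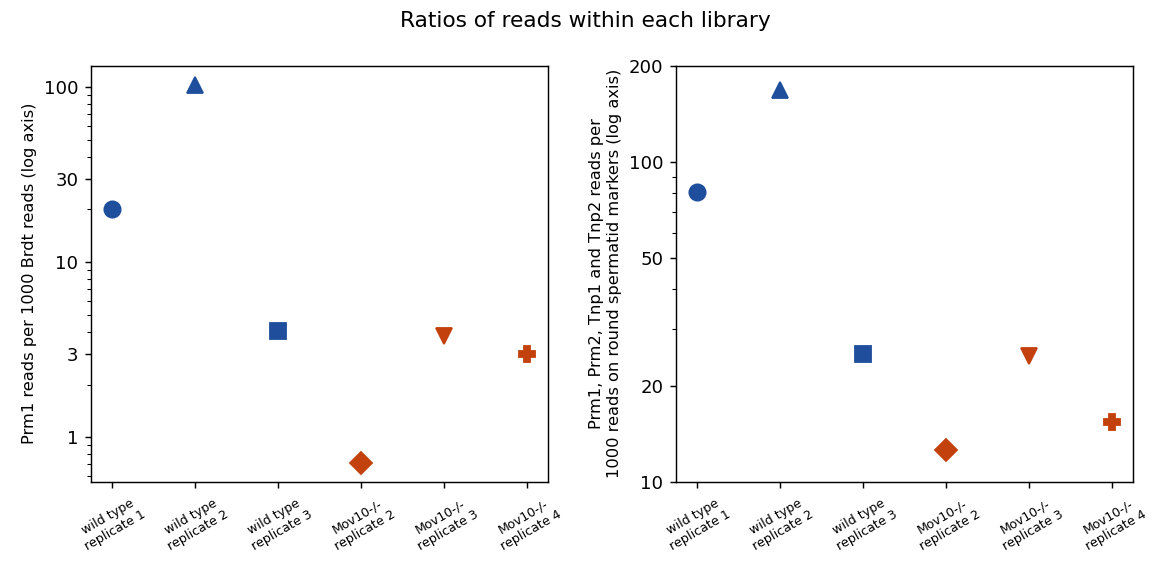
Reads on Prm1 per 1000 reads on Brdt (left) and reads on Prm1, Prm2, Tnp1 and Tnp2 per 1000 reads on 13 round spermatid markers (right), 1 point per library, on log axes. Wild type replicates 1 and 2 lie above all Mov10-/- libraries in both panels, and wild type replicate 3 (4.04 and 25.04) lies close to Mov10-/- replicate 3 (3.78 and 24.7). In the left panel these replicates numbered 3 rest on 8 and 4 reads on Prm1.

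The wider machinery of the exchange was examined in 6 lists of 104 genes, of which 98 were tested. By edgeR's quasi-likelihood test 0 were called. At an unadjusted p under 0.05, 9 were lower and 7 higher, against 11.9% and 5.58% of all tested genes. Without overlap, 6 were lower and 16 higher, against 14.1% and 11.9% of all tested genes. DESeq2 called 3 lower (Nutm1, Sox5 and Fhl5) and 2 higher (Hist1h2aa and Hist1h2ba), against 4.88% and 0.252% of all tested genes. The medians of the lists lay near that of all genes, from -0.27 for transcription factors and cofactors of round spermatids to 0.29 for the 11 tested genes of the testis histone list.

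The histone variants of the testis differed in direction. Hist1h2ba, which encodes the testis H2B variant TH2B that is made in spermatocytes, was at 8.83, 5.75 and 15.8 CPM in wild type and at 20.1, 38.7 and 22.0 CPM in Mov10-/- libraries. Its partner Hist1h2aa (TH2A) was at 2.59, 2.05 and 6.44 CPM in wild type and at 9.55, 24.1 and 7.53 CPM in Mov10-/- libraries. Both were higher in every Mov10-/- library, with log2 fold changes of 1.40 (adjusted p = 0.172) and 1.86 (adjusted p = 0.184) in edgeR's quasi-likelihood test. In contrast, 1700024P04Rik, a spermatid H2B-like gene, was at 5.54, 18.8 and 2.26 CPM in wild type and at 0.248, 3.08 and 0.247 CPM in Mov10-/- libraries (log2 fold change -3.04; adjusted p = 0.221). Of 16 listed histone genes 11 were tested, and 5 of them (these 2, H2afx, H2afv and H1f0) were higher and 0 lower without overlap, against 11.9% and 14.1% of all tested genes. Genes that did not pass the filter are not in these counts. Among them, H2al3 was at 1.53, 16.0 and 0.322 CPM in wild type and at 0 CPM in all Mov10-/- libraries. H2al2a was at 1.88, 21.9 and 0.107 CPM in wild type and at 0.124, 0.206 and 0.247 CPM in Mov10-/- libraries.

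Among 19 genes of histone acetylation, its readers and histone removal, the median log2 fold change was 0.00 to 2 decimals, with 2 lower and 3 higher without overlap. Of all tested genes, 14.1% were lower and 11.9% higher without overlap. Nutm1, which encodes a cofactor of p300 acetyltransferase in spermatids, was at 55.2, 109 and 45.3 CPM in wild type and at 26.8, 32.3 and 29.5 CPM in Mov10-/- libraries (log2 fold change -1.24; adjusted p = 0.150 in edgeR's quasi-likelihood test). Psme4, which encodes the proteasome activator PA200 that degrades acetylated histones, had a log2 fold change of -0.36 (adjusted p = 0.206 in edgeR's quasi-likelihood test), with all Mov10-/- libraries lower. For 18 genes of histone ubiquitylation and DNA breaks the median was 0.11 (0 lower and 5 higher without overlap), and for 19 remodellers, chaperones and methylation enzymes it was 0.07 (0 lower and 2 higher). Ubr2, encoding a ubiquitin ligase that modifies histones in meiosis, and Ctcfl, encoding the testis paralogue of CTCF, were higher without overlap, with log2 fold changes of 0.35 (adjusted p = 0.244) and 0.62 (adjusted p = 0.235) in edgeR's quasi-likelihood test.

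Transcription and mRNA storage were represented by 15 and 17 genes. Fhl5, which encodes ACT, the testis coactivator of CREM, was at 16.8, 50.7 and 6.55 CPM in wild type and at 2.61, 4.93 and 1.97 CPM in Mov10-/- libraries (log2 fold change -2.99; adjusted p = 0.150 in edgeR's quasi-likelihood test). Crem was at 109, 127 and 106 CPM in wild type and at 79.5, 101 and 99.2 CPM in Mov10-/- libraries, lower without overlap but by a log2 fold change of only -0.29 (adjusted p = 0.302 in edgeR's quasi-likelihood test). Sox5, a transcription factor of spermatids, had a log2 fold change of -1.88 (adjusted p = 0.150 in edgeR's quasi-likelihood test), and Kif17, a kinesin that transports ACT, had -1.68 (adjusted p = 0.182), with an overlap of the groups for Kif17 alone. Of 16 tested genes for storage, translation and processing of protamine messages, the median log2 fold change was 0.04, and Ybx2, encoding the Y-box protein that holds these mRNAs untranslated, had a log2 fold change of 0.18 (adjusted p = 0.612 in edgeR's quasi-likelihood test). Camk4, a kinase known to phosphorylate PRM2, was the gene of this list that was lower without overlap, with a log2 fold change of -1.42 (adjusted p = 0.216 in edgeR's quasi-likelihood test). Camk4 was at 17.0, 37.4 and 8.16 CPM in wild type and at 8.06, 7.40 and 7.78 CPM in Mov10-/- libraries. Wild type replicate 3 and Mov10-/- replicate 2 were thus nearly equal, and the difference rests on wild type replicates 1 and 2.

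**Figure D4:**
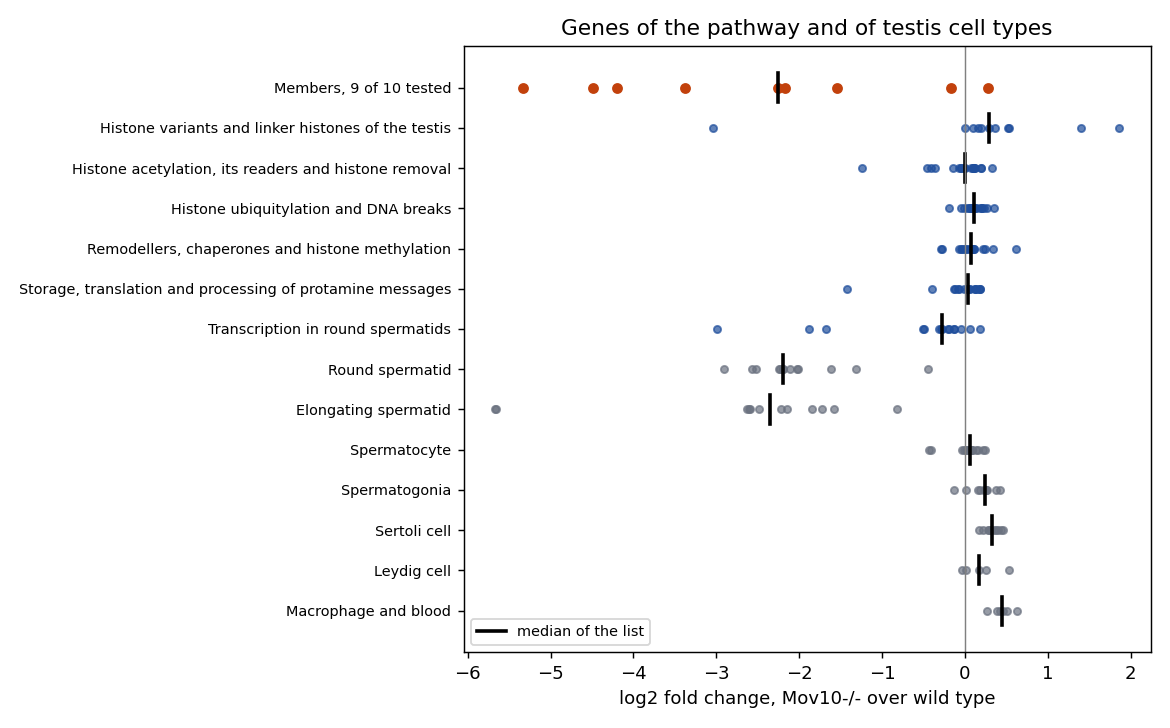
Log2 fold change, Mov10-/- over wild type (x axis), of the tested members (orange), of 6 lists of genes for the histone exchange (blue) and of 7 lists of testis cell type markers (grey); each point is 1 gene and the bar is the list's median. The median of the members (-2.25) lies near those of the round (-2.19) and elongating (-2.35) spermatid markers. Tnp2 (-5.34), Prm2 (-4.49), H1fnt (-4.20) and Tnp1 (-3.38) lie below all round spermatid markers. The medians of the other lists lie between -0.27 and 0.44.

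In the MOV10 CLIP-seq, few reads lay on these genes. Of 15710 reads on genes in the 4 CLIP libraries, 6 fell on the 10 genes. Brdt had 0, 0, 2 and 3 reads in replicates 1, 2, 3 and 5, against 3.45 in all if reads were shared out by its share of wild type RNA-seq reads. Tnp2 had 1 read in replicate 5, and the other 8 genes had 0. CLIP replicates 1, 2 and 3 differed by less than the sampling noise and were counted as 1 sample, so the reads on Brdt count as coming from 2 samples. With 3404 to 4934 reads per library, a count of 0 allows 608 to 881 RPM (reads scaled to 1000000 per library; counting error only). Binding of MOV10 was not detectable at this depth for the 8 genes without reads. The few reads on Brdt and Tnp2 do not show binding to their mRNAs. Unaligned reads made up 99.5% to 99.6% of entries in the CLIP libraries.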

How the data were processed

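Total RNA from 21-day-old testes was sequenced from TruSeq Stranded mRNA libraries (6 libraries), and MOV10 CLIP-seq was made from 4 further libraries. Per the methods and labels, the authors aligned reads to mm10 with STAR and deposited htseq-count tables of raw read counts per Ensembl gene (version of STAR and strand setting of the counting not given in the sources used here). From these counts, 55240 of 55421 genes were matched to GENCODE vM21. Rows naming no gene were left out; in Mov10-/- replicate 3 they held 57.2% of entries as unaligned reads. Genes above 1 CPM in at least 3 of 6 libraries were fitted with edgeR 4.0.16 (TMM factors, quasi-likelihood test, Benjamini-Hochberg adjustment over all 20240 genes; called at fold over 2 and adjusted p under 0.05). Depth makes 1 read worth 0.108 to 0.197 CPM. RPKM used exon-union lengths. Correlations used log2 CPM with a prior count of 2. Exact permutation tests were two-sided. Intervals are at 95%, those of a log2 fold change from its standard error by the normal distribution, and intervals and floors of counts cover counting error only. Alternatives were other scaling, filters and tests (DESeq2 1.42.0, limma voom 3.58.1), a replicate block and leaving out each library. The fit was also run on simulated counts with the same dispersion for every gene. Those counts lack the wide spread of the late genes, so they do not show how the test performs on these genes.

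All members were named whatever their values; list genes by smallest unadjusted p (up to 3) or highest mean (up to 2) in a list, of which some were left out for length, and Ybx2 and Crem were added after their values were seen. The members and lists were chosen with earlier results of these data known. RefSeq promoters were matched for all 10 genes. Chromosome coordinates are mm10.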

Additional observations from a re-analysis of the deposited data

Results flagged for a closer look

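In the 4 CLIP-seq libraries, Tnp2 had 1 read in replicate 5 and 0 in replicates 1, 2 and 3, so replicate 5 stood apart by Dixon's criterion. With a single read the gap carries no weight, and replicates 1, 2 and 3 count as 1 sample. Any gene with reads in only 1 of the 4 libraries is flagged by this criterion. The usual rate of about 1 in 20 groups flagged by chance therefore does not hold for such counts.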

How the results depend on the processing

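The log2 fold changes of the 9 tested members kept their sign under each alternative in which they were fitted; above 5 CPM, 6 of them were. Prm1 was fitted only without the filter, and its log2 ratio of means kept its sign under each scaling and left-out library. The members called lower numbered 0 with edgeR's quasi-likelihood test, 5 with DESeq2, 6 with the exact test and 6 with the likelihood ratio test. Genes of the exchange lists called lower numbered 3, 4 and 4 in those 3 tests, and called higher 2, 1 and 2. Over all genes, 1 was called lower and 0 higher in the quasi-likelihood test. The counts were 988 and 51 with DESeq2, 1031 and 70 with the exact test, 1104 and 83 with the likelihood ratio test, 3 and 3 with library totals alone, and 5 and 5 without the filter; limma voom called 1 higher. The cause was not tested. Leaving out 1 library gave 0 to 1 genes called lower (0 without Mov10-/- replicate 3 or 4), 4 to 9 members lower without overlap (16.0% to 21.9% of all tested genes), and a median member log2 fold change from -3.41 (without Mov10-/- replicate 3) to -1.65 (without wild type replicate 2). The difference in the log2 ratio of Prm1 to Brdt then ranged from -4.50 to -2.16. Replicate numbers 2 and 3 occur in both genotypes, but same-numbered libraries did not deviate together (r = -0.463 and -0.344). With a replicate block, 148 genes were called lower and 36 higher, 0 of them members, and the median of the members was -2.38. Wild type replicate 1 and Mov10-/- replicate 4 have no same-numbered partner, so the block compares genotypes through replicates 2 and 3 alone. With CLIP replicates averaged, reads on members came to 4.67 in place of 6. Depth limits Prm1 and Tnp2 most, which had 1 to 5 and 0 to 7 reads in Mov10-/- libraries.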

Other observations

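Epididymal genes were listed to look for tissue other than testis. Crisp1, a secreted protein gene of the epididymis, was at 0.118, 12.7 and 24.6 CPM in wild type replicates 1, 2 and 3 and at 70.1, 0.411 and 0.494 CPM in Mov10-/- replicates 2, 3 and 4. Adam7, also of the epididymis, was at 0.118, 0.822 and 5.91 CPM in wild type and at 20.2, 0 and 0 CPM in Mov10-/- libraries, while Lcn8 was at 0 in all 6. Of the 6 genes listed 3 were tested and 0 called by edgeR's quasi-likelihood test, with 1 at an unadjusted p under 0.05 and 0 by DESeq2, and their median log2 fold change was -1.35. Of all tested genes, 17.5% had an unadjusted p under 0.05 in either direction. Lcn5 was at 0, 0 and 1.61 CPM in wild type and at 3.10, 0 and 0 CPM in Mov10-/- libraries. Like Crisp1 and Adam7, it was highest in Mov10-/- replicate 2 and next in wild type replicate 3. Rnase10 and Cst8 had another order. Rnase10 was at 17.4, 22.7 and 7.30 CPM in wild type and at 0.124, 8.02 and 0.123 CPM in Mov10-/- libraries, and Cst8 was at 8.24, 33.4 and 7.95 CPM in wild type and at 5.83, 6.17 and 7.28 CPM in Mov10-/- libraries. The part of these genes in the values of the late spermatid genes was not tested.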
